A study of Oryzias latipes and Danio rerio with 6 samples.

Results

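The regions described here come from Dam-Yap1b and its Dam-GFP control in medaka (Oryzias latipes). They were taken as all rows of the positive list of Yap1b and all rows of the control list paired with it, 3792 and 3794 regions, which make 7586 of the 52712 regions in the 8 lists of the series. The assay was iDamID-seq, in which a protein is fused to the bacterial adenine methylase Dam and DNA near its contacts is marked at GATC sites. Both groups were wild-type medaka embryos injected with mRNA, for the fusion labelled DAM-mYap1B or the fusion labelled DAM-mGFP, and both were collected whole at stage 16 per the sample labels. The protocol text gives 80% epiboly for all embryos of the series, and the stage used below is that of the sample labels. Each replicate pooled 40 embryos and 3 replicates were made for each sample, per the labels' protocols. The lists hold no values per replicate, so each group is 1 sample.

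Yap proteins are the nuclear effectors of the Hippo pathway. When the pathway's kinases are active, they phosphorylate Yap and hold it in the cytoplasm, and otherwise Yap enters the nucleus and acts as a co-activator. Yap has no DNA-binding domain of its own and reaches DNA chiefly through TEAD factors, so a Dam-Yap fusion marks GATC sites near such partner proteins. In medaka, loss of yap1 is known to flatten the embryo. Dam fused to GFP has no such partner and reports where free methylase can reach DNA, which serves as the background of the method. The fusions were made from injected mRNA and all cells of the embryo were pooled, so neither the amount of fusion protein nor the cell type of a contact can be read from the lists.

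With 1 sample in each group there is no test between them, and no p-value is given. Shares carry Wilson 95% intervals and medians carry exact binomial 95% intervals, which cover the counting of regions only. Read counts and depth are unknown, as the lists give only positions and a score, and the sources used here add none. By what rule a region entered the control list is not stated in those sources. The medaka build is not named in them either, and 9 of 24 chromosomes carried regions beyond the last gene of the medaka gene table at hand (RefSeq, assembly ASM223467v1), by up to 5676 kb. The positions below are therefore those of the authors' lists, counted from 1, and were not tied to genes or sequence.

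The Dam-Yap1b and the Dam-GFP list were almost equal in number but not in the DNA they covered. The positive regions covered 4176 kb and the control regions 3618 kb, a 1.15-fold difference. The 24 assembled chromosomes held 3228 positive and 2836 control regions, or 4.47 against 3.92 regions per Mb, a 1.14-fold difference. Positive regions took up 0.490% of the assembled length and control regions 0.370%, a 1.32-fold difference in covered bases. The end of the last region in any of the 4 medaka lists stood for a chromosome's length, 722.8 Mb in all, which is a lower bound. No region of the positive list overlapped a region of the control list, 0 of 3792. Taking 3 regions as the most that a count of 0 allows, the share could be up to 0.0791%, and the upper Wilson bound was 0.101%. These bounds treat regions as independent draws. The positive and control lists come from the same contrast, and whether its calling allowed an overlap is not stated. The lack of overlap is therefore not read as a result about Yap1b.

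Dam-Yap1b regions were spread over a wider range of lengths than Dam-GFP regions, at both ends of the range. The median length was 949 bp (922 to 970) in the positive list and 812 bp (798 to 825) in the control list. The 10th and 90th percentiles of length were 360.1 and 1958 bp in the positive list, a 5.44-fold range. Control lengths had 492 and 1604 bp at these percentiles, a 3.26-fold range. Regions of 500 to 1000 bp made up 32.6% (31.1 to 34.1) of positive and 56.3% (54.7 to 57.9) of control regions. Regions under 400 bp made up 12.9% (11.9 to 14.1) of the positive list and 2.74% (2.27 to 3.31) of the control list. At the other end, 9.23% (8.35 to 10.2) of positive and 4.64% (4.01 to 5.36) of control regions were over 2000 bp.

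The positive lengths had a step near 2 kb. There were 244 positive regions of 1600 to 1799 bp and 219 of 1800 to 1999 bp, but 94 of 2000 to 2199 bp. The control list held 123, 85 and 53 regions in the same classes. The shortest region measured 200 bp in the positive list and 225 bp in the control list.

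**Figure D1:**
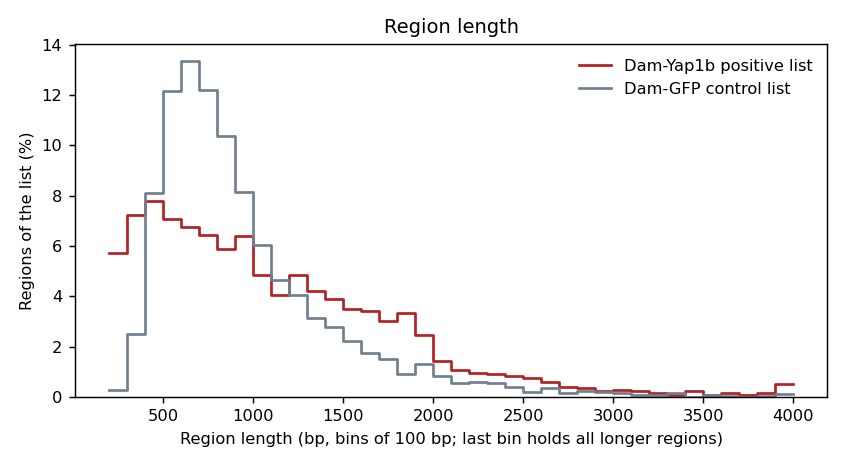
Share of regions (%, y axis) by region length (bp, x axis, bins of 100 bp) in the Dam-Yap1b positive list (red) and the Dam-GFP control list (grey). The control curve peaks between 600 and 700 bp, while the positive curve is broad, with 12.9% of regions under 400 bp and a step down at 2000 bp.

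The order of the median lengths varied with the score class. At scores of 112 to 149, median lengths were 932.5 bp (882 to 964) in the positive and 784 bp (765 to 801) in the control list. At scores of 200 to 299 they were 937 bp (879 to 986) and 965.5 bp (898 to 1038), with overlapping intervals and the control median the longer one. In that class the 10th percentile was still 388.4 bp in the positive and 612.1 bp in the control list, while the 90th percentiles were 1946 and 1903 bp. Regions under 300 bp made up 5.03% (3.73 to 6.75) of the 815 positive regions of this class and none of the 274 control regions. At scores of 300 to 401 the medians were 1026.5 bp (934 to 1172) over 270 positive and 857 bp (677 to 1466) over 25 control regions, again with overlapping intervals. Length and score were nearly unrelated within each list, with a Spearman correlation of 0.05 over 3792 positive and 0.12 over 3794 control regions.

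The longest Dam-Yap1b regions were not the strongest ones. The longest positive region spanned 5345 bp of chromosome 17 (25396008 to 25401352), with a score of 163 that ranked 1959th of the list. Next came 5205 bp of chromosome 20 from 19817551 to 19822755, with a score of 241. The third lay on scaffold903 (67982 to 72922), spanned 4941 bp and scored 227. Chromosome 15 carried the fourth, 4846 bp from 20926656 to 20931501 with a score of 182. Chromosome 4 carried the fifth, 4746 bp from 3741758 to 3746503 with a score of 370. Of these 5 regions, 4 overlapped a region of the Dam-Yap1 positive list and the one on chromosome 15 did not. The share of all positive regions that overlap that list is not given here, so this count has no base to be set against. Among control regions the 5 longest measured 3802 to 4122 bp and scored 113 to 171. Unplaced scaffolds carried 4 of them, and 17.8% of all control regions.

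The score is a whole number made by the authors, whose quantity is not stated, and both lists began at the same lowest score of 112. Scores of the positive list reached further up. The median was 166 (164 to 170) in the positive list and 138 (137 to 139) in the control list. The 90th percentile was 332 in the positive list and 192 in the control list. Within 10 of the lowest score lay 12.9% (11.8 to 14.0) of positive and 22.9% (21.5 to 24.2) of control regions. A score of 300 or more was held by 506 positive and 25 control regions.

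The control list ended at 401, and 236 positive regions lay above it (6.22%, 5.50 to 7.04). These 236 regions had a median length of 1054 bp, and 212 of them lay on assembled chromosomes, at least 2 on each of the 24. Chromosome 9 held the most, 17 of its 152 positive regions, and chromosomes 2 and 16 held 2 each, of 54 and 125 positive regions. A score of 500 or more was held by 110 positive regions and one of 800 or more by 13.

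**Figure D2:**
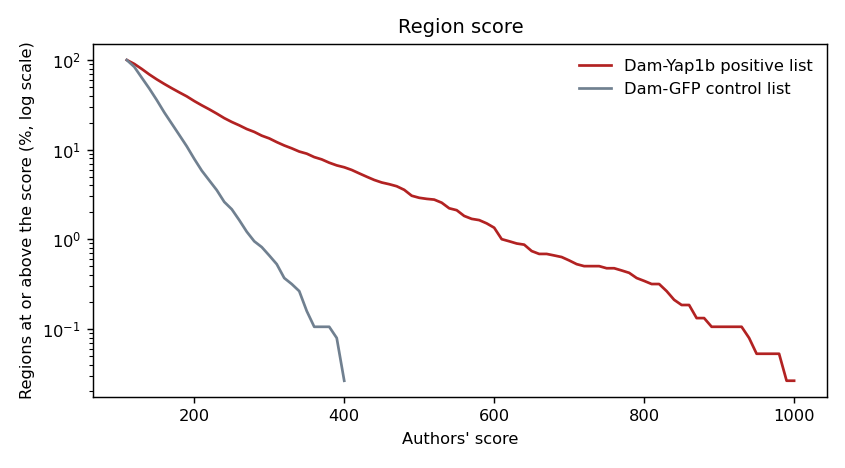
Share of regions at or above a score (%, y axis, log scale) against the authors' score (x axis) in the Dam-Yap1b positive list (red) and the Dam-GFP control list (grey). The curves start together at the lowest score of 112, and the control curve ends at 401, where 6.22% of positive regions still lie above.

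The 5 positive regions of highest score were isolated from control regions to very different degrees. The region of score 1000, on chromosome 21 (6823779 to 6824833), lay 858.5 kb from the nearest control region and 6.89 kb from the next positive one. The second, on chromosome 4 (23730220 to 23731120) with a score of 989, lay 203.5 kb from a control region and 5.39 kb from a positive one. The third, on ultracontig182 (2555167 to 2556438) and scored 942, lay 117.9 and 106.4 kb from them. The fourth, on chromosome 1 (1877568 to 1878905) and scored 938, had a control region 8.91 kb away and a positive one 1.63 kb away. The fifth, on chromosome 15 (12091785 to 12094485) and scored 887, had them 14.3 and 26.3 kb away. In 4 of the 5 regions the nearest positive region was closer than the nearest control region. The share of all positive regions for which this holds is not given here, so the count has no base to be set against.

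The control regions of highest score lay mostly off the assembled chromosomes. The strongest control region, with a score of 401, lay on ultracontig257 (1256302 to 1258348). Those scored 392, 390 and 387 lay on scaffold6120 (1662 to 3311), scaffold952 (7242 to 7884) and scaffold2080 (16261 to 17840). The fifth, of score 354, lay on chromosome 10 (7437681 to 7440254). A region of scaffold3324 (1096 to 1551) had the same score and came after it by name order only. Of the 5 positive regions of highest score, 4 lay on chromosomes, which is near the share in the whole list. Assembled chromosomes held 85.1% of all positive and 74.7% of all control regions.

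Strong Dam-Yap1b regions lay less often near chromosome ends than weak ones, while strong Dam-GFP regions lay more often off the chromosomes. Of positive regions, 14.5% (12.8 to 16.4) lay off the assembled chromosomes at scores of 112 to 149, and 10.2% (6.93 to 14.7) above 401, with overlapping intervals. For the control list the share was 23.3% (21.7 to 25.0) at scores of 112 to 149, 27.1% (24.5 to 29.8) at 150 to 199 and 33.6% (28.2 to 39.4) at 200 to 299. Positive regions in the first or last 10% of a chromosome's length made up 21.2% (19.0 to 23.5) at scores of 112 to 149 and 13.2% (9.30 to 18.4) above 401, with intervals that did not overlap. For control regions the shares were 33.8% (31.7 to 36.0) at 112 to 149 and 41.2% (34.3 to 48.5) at 200 to 299, with overlapping intervals. Positive regions with another positive region within 10 kb made up 21.9% (19.8 to 24) of the lowest class and 30.5% (25.0 to 36.7) of those above 401.

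Neighbouring Dam-Yap1b regions lay closer together than neighbouring Dam-GFP regions, and the lists differed most at the shortest gaps. The median gap between neighbours on the same sequence was 107138 bp (101413 to 113216) over 3383 positive gaps and 122265 bp (115565 to 130727) over 3153 control gaps. Assembled chromosomes held 3228 positive and 2836 control regions, so the shorter median is not separate from the larger number. Gaps up to 1 kb made up 5.62% (4.89 to 6.44) of positive and 2.73% (2.21 to 3.36) of control gaps. Gaps of 10 to 100 kb made up 33.8% in the positive and 33.7% in the control list. Gaps over 1 Mb were 90 of the positive and 105 of the control gaps.

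The shortest gap in either list was 4 bp, and it was also by far the most frequent short gap. It occurred 96 times among positive neighbours (2.84%, 2.33 to 3.45) and 33 times among control neighbours (1.05%, 0.746 to 1.47). No other gap of up to 300 bp occurred more than 2 times in the positive list or more than 1 time in the control list, and the next smallest values were 12 and 37 bp. A GATC site is 4 bp long, so a gap of this size has the length of 1 such site between 2 regions. The sequence in these gaps was not read, since no genome of the build was used here. In the positive list the 96 gaps joined 192 regions into 96 separate pairs, with no run of 3. In the control list 1 run of 3 occurred among 65 regions.

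The 192 paired Dam-Yap1b regions were shorter than the rest of the list. Their median length was 772 bp (702 to 886), against 953.5 bp (932 to 979) for the other positive regions, and the 2 regions of a pair together spanned 1830 bp (1522 to 1967) at the median. Control medians were 775 bp (659 to 881) for paired and 813 bp (799 to 826) for other regions, with overlapping intervals. Median scores were 181 (159 to 206) for paired and 166 (163 to 169) for other positive regions. The regions of a positive pair never had the same score, and differed by 61.5 at the median and by 499 at most. Such pairs were found on 23 of 24 chromosomes for the positive list.

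The strongest of these pairs lay on chromosome 9, from 22723158 to 22725070, where a region of score 844 and one of score 550 met across the gap. On chromosome 22 (12558669 to 12560190) the scores were 795 and 296, and on chromosome 4 (715254 to 719219) they were 240 and 605. The strongest control pairs were on scaffold3324 (1096 to 2141, scores 354 and 169), chromosome 2 (24611610 to 24613256, scores 122 and 282) and ultracontig257 (1428604 to 1430419, scores 241 and 153). The Dam-Yap1 positive list, which was set against the same Dam-GFP sample, held a single region across 46 of the 96 positive gaps. At 17 more it held the same 4 bp gap, in 19 it held 1 of the 2 edges, and in 14 neither. For the 33 control gaps, the control list paired with Yap1 held a single region across 7 and the same gap at 0. It held 1 edge at 10 and neither at 16. The shares of all positive and all control regions that overlap the lists of Yap1 are not given here. Neither set of counts therefore has a base to be set against.

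**Figure D3:**
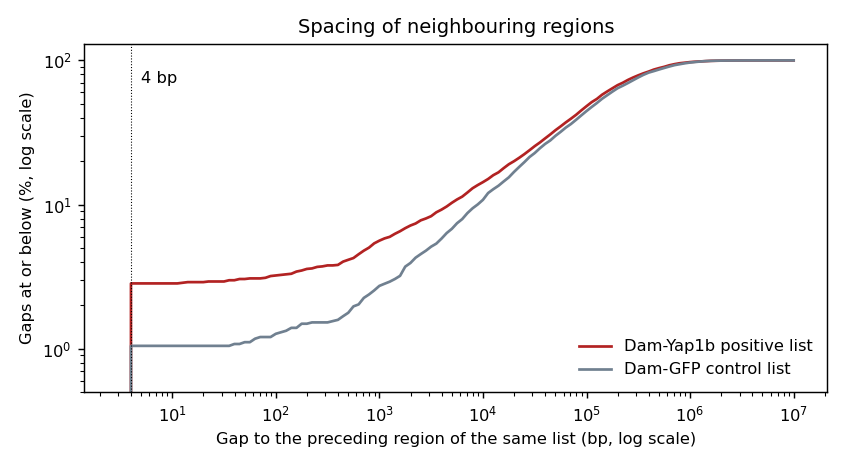
Share of gaps at or below a size (%, y axis, log scale) against the gap to the preceding region of the same list (bp, x axis, log scale) for the Dam-Yap1b positive list (red) and the Dam-GFP control list (grey). Both curves begin with a jump at 4 bp, to 2.84% and 1.05%, and lie closer together beyond 100 kb.

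Neighbours at short distance came from the same list more often than neighbours far apart. When both lists were put in one order along each sequence, 129 of the 132 neighbours 4 bp apart belonged to 1 list, namely 96 positive and 33 control pairs. Neighbours of the same list made up 87.0% (81.1 to 91.2) at gaps over 4 bp and up to 1 kb, 65.0% (61.7 to 68.2) at 1 to 10 kb and 53.8% (51.8 to 55.8) beyond 100 kb. The lists come from the same contrast, so their placements are not independent. The 3 mixed pairs met 4 bp apart on chromosome 11 (positive region 10494197 to 10494429, score 171, control score 151), chromosome 17 (22858996 to 22860560, 199 and 178) and scaffold1359 (8633 to 10418, 121 and 129). Within 1 kb of a control region lay 24 of 3792 positive regions (0.633%, 0.426 to 0.940), and within 10 kb 335 (8.83%, 7.97 to 9.78). The score of a positive region hardly varied with this distance, with medians of 162 (153 to 172) at 1 to 10 kb and 170 (165 to 175) beyond 100 kb.

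Clusters, taken as runs of regions at most 10 kb apart, were more common in the Dam-Yap1b list. They held 893 positive regions (23.5%, 22.2 to 24.9) in 409 clusters, against 629 control regions (16.6%, 15.4 to 17.8) in 289 clusters. Most clusters were pairs, 349 in the positive and 247 in the control list, and 5 regions were the most in either list. After the regions 4 bp apart were joined, the shares were 19.5% and 15.2%. Gaps of 1 to 10 kb made up 8.69% (7.79 to 9.69) of positive and 8.06% (7.16 to 9.06) of control gaps, with overlapping intervals. The difference in clusters thus lay mainly in gaps up to 1 kb, 5.62% against 2.73%. Regions alone on their sequence, which cannot be in a cluster, made up 8.36% of positive and 12.7% of control regions.

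One of the 2 positive clusters of 5 regions lay on chromosome 17 (31677046 to 31689651) and covered 4098 bp with scores from 123 to 239. The other lay on chromosome 3 (32438372 to 32450098) and covered 2322 bp, with scores of 202, 128, 417, 228 and 127 in order of position. A cluster of 4 on chromosome 12 (15414526 to 15424251) included regions of score 656, 317, 302 and 124. None of these 3 clusters had a control region within 10 kb, but only 8.83% of all positive regions had one. In these clusters 2, 3 and 2 regions overlapped a Dam-Yap1 positive region. For these overlaps, too, the share over all positive regions is not given here. The leading control clusters were 5 regions on chromosome 3 (1531817 to 1553847), 5 on scaffold910 (31910 to 45949) and 4 on chromosome 11 (3740042 to 3758050). Their scores ran from 113 to 313. None had a positive region within 10 kb, but only 8.43% of all control regions had one. Scores of neighbouring positive regions up to 1 kb apart had a Spearman correlation of 0.06 over 190 pairs. For the 96 of these pairs that lay 4 bp apart the correlation was 0.29. For the 33 control pairs 4 bp apart it was -0.003.

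Over the 24 chromosomes together the Dam-Yap1b regions were spread almost evenly along the length, whereas the Dam-GFP regions crowded toward both ends. When each chromosome was cut into 10 equal parts, every part held between 8.40% (7.49 to 9.40, the first) and 11.5% (10.5 to 12.7, the sixth) of positive regions. The control list had 15.2% (13.9 to 16.5) in the first part and 19.7% (18.3 to 21.2) in the last, and as little as 6.77% (5.90 to 7.75) in the fourth. Together the first and last part, called the outer parts below, held 19.1% (17.7 to 20.4) of positive and 34.9% (33.1 to 36.6) of control regions. The positive share was the lower one on 24 of 24 chromosomes, at 19.5% ± 6.14 against 34.7% ± 4.31 (SD over chromosomes of 1 sample each, which are not replicates). On single chromosomes the positive share ran from 7.69% (chromosome 20) to 32.2% (chromosome 15). The control share ran from 26.8% (chromosome 17) to 43.7% (chromosome 3). The evenness of the positive list is therefore that of all chromosomes pooled.

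**Figure D4:**
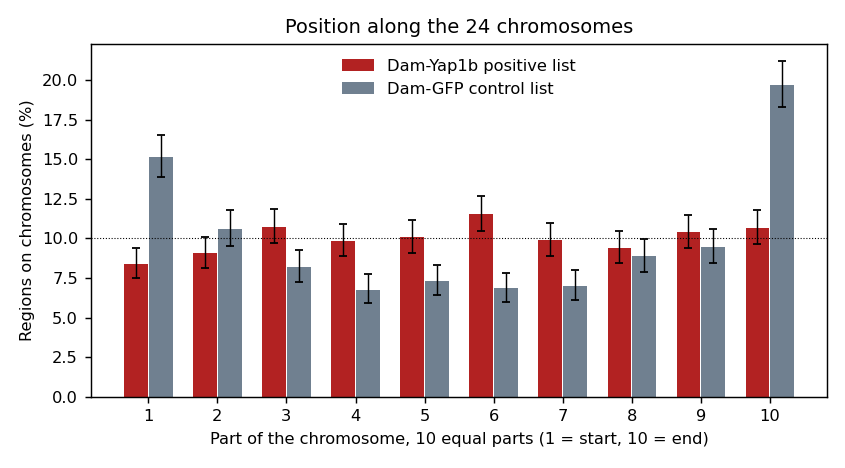
Share of chromosomal regions (%, y axis) in each of 10 equal parts of the chromosome (x axis, all 24 chromosomes together) for the Dam-Yap1b positive list (red, left bars) and the Dam-GFP control list (grey, right bars). Bars start at 0, error bars are Wilson 95% intervals and the dotted line marks 10%, and the control bars are highest in the first and last part, at 15.2% and 19.7%.

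Measured as density by distance from the chromosome end, control regions were denser up to 4 Mb from it and positive regions denser further in. Positive regions numbered 4.25 per Mb within 0.5 Mb of an end, 4.42 at 0.5 to 1 Mb, 4.60 at 1 to 2 Mb, 3.92 at 2 to 4 Mb, 4.62 at 4 to 8 Mb and 4.53 further in. Control regions numbered 8.88, 7.75, 6.94, 4.97, 3.49 and 2.82 per Mb in the same order. The positive density thus stayed within 3.92 to 4.62 per Mb, while the control density declined at every step. The positive over control ratio was 0.479 nearest the end and 1.61 beyond 8 Mb. The stretch within 1 Mb of an end makes up a small part of each chromosome, and what remained without it held 4.48 positive and 3.61 control regions per Mb.

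Although their number was near even over all chromosomes together, positive regions of the outer parts scored lower. Their median score was 157 (151 to 164), against 173 (169 to 177) for positive regions of the middle 6 parts. Control medians were 139 (137 to 141) in the outer parts and 137 (135 to 139) in the middle. The intervals of positive median lengths overlapped, at 968 bp (911 to 1060) in the outer parts and 949 bp (909 to 989) in the middle.

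Over all 24 chromosomes Dam-Yap1b density differed more than Dam-GFP density, but without chromosome 2 the ranges of both lists were close. Positive densities averaged 4.50 ± 0.93 regions per Mb (SD over 24 chromosomes) and differed 3.38-fold between the highest and the lowest. Control densities averaged 3.94 ± 0.60 per Mb, with a 1.91-fold range. Chromosome 22 was densest in the positive list, at 5.88 per Mb, followed by chromosome 20 at 5.79 and chromosome 7 at 5.47. Chromosome 2 was sparsest at 1.74 per Mb, followed by chromosome 18 at 2.82 and chromosome 14 at 3.45. Without chromosome 2 the positive mean was 4.62 ± 0.74 per Mb, and densities ran from 2.82 to 5.88. The control SD without it was not computed. Neither extreme of the control densities lay on chromosome 2, so their range stayed at 2.84 to 5.41 per Mb. In windows of 1 Mb the control list was the more uneven one, with a variance of 2.37 times the mean against 2.15. In the control list chromosomes 8, 22 and 11 were densest, at 5.41, 4.98 and 4.86 per Mb, and chromosomes 21, 10 and 2 sparsest, at 2.84, 3.33 and 3.38. Over the 24 chromosomes positive and control densities had a Spearman correlation of -0.03, a description over chromosomes of the same samples. The positive density was above the control density on 18 of 24 chromosomes. With the same score minimum of 166 in both lists, chosen after seeing the data, it was above on 24 of 24. Densities were then 2.26 positive and 0.813 control regions per Mb. That minimum is the positive list's own median score and kept 1914 positive but 835 control regions. The count of 24 therefore carries the difference in score and adds nothing separate on density.

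**Figure D5:**
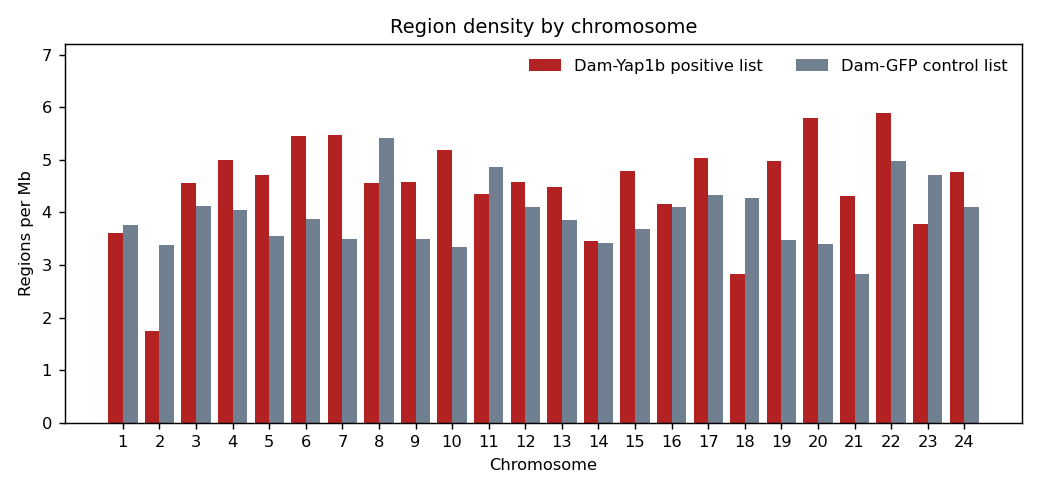
Regions per Mb (y axis, from 0) on each of the 24 assembled chromosomes (x axis) in the Dam-Yap1b positive list (red, left bars) and the Dam-GFP control list (grey, right bars), 1 sample each and so without error bars. Chromosomes 2 and 18 have the lowest positive bars, at 1.74 and 2.82 per Mb, while chromosome 20 has 5.79 positive against 3.40 control regions per Mb.

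To separate chromosomes from the difference in total number, the share of each chromosome was taken over assembled regions alone. The intervals of the positive and the control share were apart on 3 chromosomes. They take regions as independent and are no test. Counts in windows of 1 Mb had a variance of 2.15 times their mean in the positive and 2.37 times in the control list. The intervals are therefore likely too narrow. Chromosome 2 held 1.67% (1.28 to 2.18) of positive and 3.70% (3.07 to 4.46) of control regions, a ratio of 0.452. Chromosome 18 held 2.60% (2.11 to 3.21) and 4.48% (3.78 to 5.30), a ratio of 0.581. Chromosome 20 held 4.43% (3.77 to 5.20) and 2.96% (2.40 to 3.65), a ratio of 1.5. The next in order were chromosome 23 at the low end, with a ratio of 0.708, and chromosomes 7 and 10 at the high end, at 1.37 each, and in these the intervals overlapped. Chromosome 2 makes up 4.30% of the assembled length and chromosome 20 3.42%. Median scores varied more by chromosome in the positive list than in the control list. Positive medians ran from 153.5 on chromosome 13 to 188 on chromosome 20 (SD 9.16 over chromosomes). Control medians ran from 133 to 145 (SD 2.70). Single regions also varied more in score in the positive list (SD 109 against 35.1). The wider range of its chromosome medians is therefore not separate from that spread. The positive median score was above the control one on 24 of 24 chromosomes, and the positive median length on 22 of 24, all but chromosomes 8 and 14.

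Chromosome 2 was sparse in both lists over its first part. In 5 equal parts from its start it held 3, 3, 11, 17 and 20 positive and 12, 10, 18, 29 and 36 control regions. Of its 32 windows of 1 Mb, 14 held no positive and 9 no control region. The longest stretch without a positive region on any chromosome was 7.80 Mb of chromosome 2 (7020520 to 14816454), in which 7 control regions lay. The second was its first 4.84 Mb (1 to 4837653), where no control region lay either. The third was 3.23 Mb of chromosome 14 (25051663 to 28276708), with 1 control region. The longest stretches without a control region were 5.40 Mb of chromosome 2 (7546462 to 12945713), with no positive region, its first 5.02 Mb (1 to 5022583), with 3, and 3.37 Mb of chromosome 1 (6235493 to 9609891), with 1. In the Dam-Yap1 positive list, chromosome 2 held 1.80 regions per Mb and chromosome 18 held 3.09.

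Counts in 5 equal parts are given for chromosomes 18, 20 and 10, beside those of all 24 chromosomes together. The latter were 564, 665, 697, 623 and 679 positive and 731, 424, 402, 451 and 828 control regions. Control regions were thus the more numerous in the first and last part of all chromosomes, and positive regions in the middle 3. Chromosome 18 held 11, 18, 16, 24 and 15 positive regions in its 5 parts, against 40, 18, 19, 21 and 29 control regions, so the lists differed mainly in the first and last part. Chromosome 20 held 14, 34, 31, 45 and 19 positive and 22, 12, 8, 10 and 32 control regions. There, too, the middle 3 parts held more positive than control regions, the order seen over all chromosomes. Over all chromosomes the second part held 20.6% of positive and 15.0% of control regions. Chromosome 10 held 50 of its 143 positive regions in the second part, against 14 of its 92 control regions.

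That second part included the richest window of the positive list. Chromosome 10 from 7000001 to 8000000 held 16 positive and 3 control regions. Next came chromosome 15 from 28000001 to 29000000, with 15 positive and 11 control regions, and chromosome 16 from 15000001 to 16000000, with 15 and 4. The richest control windows lay near chromosome ends, on chromosome 3 (2000001 to 3000000, 4 positive and 19 control regions), chromosome 16 (29000001 to 30000000, 2 and 17) and chromosome 2 (30000001 to 31000000, 1 and 17). Over all 733 windows of up to 1 Mb the mean was 4.4 positive regions (SD 3.07) and 3.87 control regions (SD 3.03). Windows with neither list numbered 20, with the positive list alone 34, and with the control list alone 32. Across windows the Spearman correlation of both counts was 0.16, a description over windows of the same samples.

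Sequences not placed on a chromosome carried a smaller part of the Dam-Yap1b list than of the Dam-GFP list, and the difference held in both kinds of sequence. Scaffolds held 389 positive (10.3%, 9.33 to 11.3) and 674 control regions (17.8%, 16.6 to 19.0). Ultracontigs held 174 positive (4.59%, 3.97 to 5.30) and 284 control regions (7.49%, 6.69 to 8.37). The positive regions lay on 384 such sequences and the control regions on 617, with 116 common to both, 30.2% of the positive and 18.8% of the control sequences. Of the 384 sequences with a positive region 316 held just 1. Median scores of positive regions were 170 (160 to 179) on scaffolds, 160 (152 to 174) on ultracontigs and 166.5 (163 to 170) on chromosomes. The first base of a sequence was the start of 50 positive and 32 control regions, none of them on an assembled chromosome. The unplaced sequences that carried them held 563 positive and 958 control regions in all, so such starts were relatively more common in the positive list.

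The same 3 ultracontigs led the unplaced sequences of both lists, in unequal proportion. Ultracontig115 held 35 positive and 24 control regions, or 6.32 against 4.33 per Mb up to the end of its last listed region. Ultracontig182 held 14 and 16, or 3.74 against 4.28 per Mb. Ultracontig72 held 10 and 23, or 2.78 against 6.40 per Mb. The mitochondrial genome held 1 positive region, from 15207 to 16714 with a score of 158, and no control region.

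In its spread of lengths the Dam-Yap1b list was close to the Dam-Yap1 list of the same stage. The latter was set against the same Dam-GFP sample and is therefore not independent. The ratio of the 90th to the 10th percentile of length was 5.44-fold for Yap1b and 5.67-fold for Yap1 positive regions, and 3.26-fold and 3.25-fold for their control lists. Median gaps were 107138 bp for Yap1b and 94507 bp for Yap1 positive regions. The control lists differed more, with medians of 122265 bp for the list paired with Yap1b and 81274 bp for the list paired with Yap1. They held 3794 and 5190 regions, so these gaps are not separate from list size. Scores began at 112 in the lists of Yap1b and at 79 in those of Yap1. Median scores of positive regions were 166 and 122.5. No test separates these lists, since each factor was 1 sample.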

How the data were processed

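Region lists of iDamID-seq from whole medaka embryos were analysed. Per the labels' protocols, DNA was cut with DpnII and DpnI, ligated to adapters, amplified by 25 cycles of PCR and sequenced. Tools named in the submitters' processing notes are bedtools, Bowtie2, cutadapt and SAMtools, with no version for any, and those notes name a zebrafish assembly alone, GRCz10 (danRer10). What the sources used here do not state is the region caller, its threshold and how replicates were handled. The score of each region was deposited by the authors as a whole number. It was used to describe and rank regions within a list and to set the lists side by side. As its quantity is not stated, whether a score means the same in both lists is not known. The pairing of the control list with Yap1b was read from its file name. Positions, lengths, gaps, clusters (10 kb) and densities were computed with Python 3.11.15, pandas 2.3.3, NumPy 2.4.6 and SciPy 1.17.1, and the functions were tested on simulated regions. A gap is the number of bases between neighbouring regions of a list.

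The regions and lists were chosen with earlier results of these data known. The named items were the 5 highest scores and 5 longest regions, the 3 leading clusters, windows, region-free stretches, chromosomes and unplaced sequences of each list. The 4 bp gaps, the step at 2 kb and the score classes were chosen after the values were seen. Alternatives changed the score minimum, the joining of regions, the cluster distance and the sequence lengths. Genes, GATC sites and TEAD motifs were not analysed here, as no genome of the build was used.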

Additional observations from a re-analysis of the deposited data

How the results depend on the processing

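The direction of the difference between Dam-Yap1b and Dam-GFP regions was the same in all 32 comparisons made under an alternative. Not all of these could change it, since sequence lengths cancel out of the density ratio and joining across 4 bp touched few regions. Joining could not reverse the region counts either, as the positive list began with fewer regions and had more short gaps. Cutting each list at its own median score leaves near-equal counts by construction, so the region counts there add nothing. Score classes were not among the 32. At scores of 200 to 299 the control median length was the longer one, 965.5 against 937 bp, with overlapping intervals. No paired analysis was possible because each group is 1 sample, and with no values per replicate none could be left out. Of 66 values, 34 stayed within the 95% interval of the value in the report (for counts and covered length, within 1.5 times of it), and the others follow, positive before control. Among regions at or above their list's median score there were 1914 and 1924 regions, covering 2168 and 1926 kb, with median gaps of 233176 and 249413 bp, 15.0% and 10.8% in clusters, 16.9% and 36.8% in the outer parts, a control median length of 841.5 bp and 0.366% of positive regions within 1 kb of a control region. The share within 10 kb was 8.83%. Without regions under 300 bp the positive median length was 993 bp. Joining within 1 kb gave a positive median gap of 118800 bp, and without chromosome ends the control median gap was 153733 bp. Neighbours within 5 kb gave 17.4% and 10.8% in clusters, those within 50 kb 47.9% and 42.1%, and joining across 4 bp, chosen after seeing the data, 19.5% and 15.2%. The outer 20% at each chromosome end held 38.5% and 55.0%. The density ratio was 1.32 by covered bp, 1.08 after joining within 10 kb and 1.24 without chromosome ends. With the same score minimum of 166 in both lists, also chosen after seeing the data, 1914 positive and 835 control regions were kept. This minimum is the positive list's own median, so the density ratio it gives carries the difference in score. The outer parts then held 16.9% and 40.6%, the density ratio was 2.77 with 24 of 24 chromosomes denser in positive regions, and for control regions the median length was 898 bp and the unplaced share 29.6%. The cause of these shifts was not tested. Unknown depth limits every value, since a region missing from a list may have been too thinly read to be called.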

Other observations

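In every length class, short regions included, the median and the highest score of Dam-Yap1b regions were above those of Dam-GFP regions. The 217 positive regions under 300 bp had a median score of 159 and reached 580, while the 10 control regions of that length had a median of 126.5 and reached 144. The 159 of these short positive regions was below the median of the whole positive list, 166. At the other end, the 67 positive regions over 3000 bp had a median score of 184 and reached 605, against 171 and 299 for 23 control regions. The 317 positive regions that stood alone on their sequence had a median score of 169 (159 to 175) and a median length of 979 bp (914 to 1083). Positive regions more than 300 kb from any other positive region numbered 226, with a median score of 163.5 (155 to 175).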
